A study of Mus musculus with 15 samples.

Results

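Nuclear receptors are transcription factors that share a zinc-finger DNA-binding domain and, in most members, a pocket that binds a small lipid-soluble ligand such as a steroid, a retinoid, thyroid hormone, a vitamin D metabolite, an oxysterol or a fatty acid. Several others, among them the Nr4a genes and the estrogen-related receptors, have no known hormone and act largely through how much of them a cell makes. In connective tissue cells, members of the family set the response to glucocorticoids, retinoic acid and thyroid hormone, take part in the circadian clock and govern the choice to become fat cells. The 46 genes described here were taken by name as the mouse nuclear receptors listed for this work, from 22063 rows of a count table of protein-coding genes, without use of any measured value. The list is not held to be complete.

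Gene expression was measured by RNA-seq in primary mouse embryonic fibroblasts of the C57Bl/6 strain at passage 2, cells grown out of embryos and bought as a commercial stock. A plasmid expressing 1 of 4 homeobox genes of the early embryo was introduced by electroporation, giving the groups CrxOS, OboxA1, OboxA4 and OboxA7, and an empty vector gave the group Control, with 3 libraries in each. All 15 libraries share the electroporation, the CMV promoter that drives the insert at levels set by the plasmid, a co-expressed green fluorescent protein, the sort for cells positive for it and the time of 48 h, and the inserts carry a V5 tag. Nothing in the labels says whether the 3 libraries of a group came from separate cultures, so the spread behind the p-values is that between libraries and may be technical. The study's methods state that experiments were paired by day, but no day is given for any library in the sources used here.

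The libraries held 28440415 to 42778823 counted reads (median 33849761). Reads of each transfected gene were between 2009 and 12033 in its own libraries and at most 34 in any other. The cells carried the fibroblast markers, with 10 of 10 detected and a summed level of 26150 to 39740 CPM (read counts after TMM, relative to library total), while 6 hepatocyte markers summed to at most 0.247 CPM with Serpina1a and Tat at 0 throughout. Principal component 1 of the 1000 most variable genes (56.5% of the variance) placed the 3 CrxOS libraries with OboxA1 replicate 3 and Control replicate 1, apart from the other 10 libraries. These are called the set of 5 and the set of 10, and the same 15 of 15 placements were obtained with the receptor genes removed, of which 5 (Pparg, Vdr, Esr2, Esrrg and Pgr) are among the 1000. Because the CrxOS libraries all lie in the set of 5 and the OboxA4 and OboxA7 libraries all lie in the set of 10, the transfected gene and the set cannot be told apart in the 15-library test. A within-set value, from a fit with a mean for each group in each set, is therefore given beside it for the receptors called. For the gene lists, within-set medians are given where the median after any of the genes changed sign. The within-set value for CrxOS rests on Control replicate 1 alone, with its spread taken from the other groups, that for OboxA4 and OboxA7 on Control replicates 2 and 3, and that for OboxA1 on all 3. For Nr4a3, Nr1d1, Nr1d2, Rora, Vdr, Pparg and Pgr after CrxOS, the value from a fit with 1 shared term for the set, added to the group means, is given too. Whether the libraries of a set share a day of work was not tested.

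Of the 46 receptors, 19 (41.3%) were expressed in these fibroblasts, defined as a mean RPKM (reads scaled to gene length and library total) over 2 in at least 1 of the 5 groups, against 10426 (47.3%) of all rows. By group mean, these 19 were over the threshold in all 5 groups except Vdr, which was over it after CrxOS and OboxA1 and in Control, and Pparg, which was over it everywhere but after CrxOS. Single libraries differed, with 4.18, 1.28 and 1.46 RPKM of Vdr in Control and 2.28, 1.76 and 6.79 RPKM in OboxA1 libraries. The highest in each was the library of the set of 5. Pparg was at 1.17 RPKM in OboxA1 replicate 3, also of the set of 5. Nr4a1, an orphan receptor and immediate-early gene, stood highest in all 5 groups, with a mean RPKM of 75.5 ± 14.2 in CrxOS, 52.6 ± 6.9 in OboxA1, 58.6 ± 6.8 in OboxA4, 77.8 ± 9.22 in OboxA7 and 50.02 ± 12.2 in Control libraries (SD, n = 3 each). Rarg, a retinoic acid receptor, followed at 44.4 ± 3.63 RPKM in Control libraries, so its level and that of Nr4a1 did not differ there beyond their spread. Next in Control libraries came Nr1d1, a repressor of the circadian clock, at 35.4 ± 2.08 RPKM, Nr1h2, the oxysterol receptor LXR-beta, at 28.2 ± 2.96 RPKM, and Rxra, the shared dimer partner of many receptors, at 20.2 ± 1.97 RPKM.

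A group of receptors lay close together in Control libraries. The thyroid hormone receptor gene Thra was at 15.9 ± 1.22 RPKM, the glucocorticoid receptor gene Nr3c1 at 15.004 ± 1.48 RPKM and the clock repressor Nr1d2 at 14.02 ± 0.53 RPKM, and neighbours in this order did not differ beyond their spread. Esrra, an estrogen-related receptor linked to mitochondrial genes, the COUP-TF family members Nr2f6 and Nr2f2, the retinoic acid receptor gene Rara and the fatty acid receptor gene Ppard lay between 9.43 and 11.8 RPKM in Control libraries, and Nr4a2, Nr2c1 and Rxrb between 3.64 and 4.58 RPKM. Just inside the threshold stood Pparg and Nr2c2, a testicular receptor, whose highest group means were 3.7 and 3.19 RPKM. Just outside it stood Nr2f1 and Nr4a3, with highest group means of 1.84 and 1.48 RPKM.

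A further 15 receptors, Nr2f1 and Nr4a3 included, were under the threshold but had enough counts to be tested. The others of these were Rora, Esrrg, Nr6a1, Rarb, Esr1, Esr2, Nr1h3, Thrb, Nr1i3, Pgr, Nr3c2, Rorb and Ppara, with highest group means from 1.42 RPKM for Rora down to 0.092 RPKM for Ppara, the fatty acid receptor of the liver. The other 12 did not pass the filter on low counts and were not tested. They are Rxrg, Nr1h4 (the bile acid receptor), Nr2e1 and Nr2e3 (receptors of neural and retinal lineages), Nr5a1 and Nr5a2 (regulators of steroid synthesis), Esrrb (a pluripotency factor), Nr0b1 and Nr0b2 (receptors without a DNA-binding domain), Hnf4a and Hnf4g (hepatic and intestinal regulators) and Nr1i2 (the xenobiotic receptor PXR). Esrrb had the most reads of these, 52 over the 15 libraries, while Hnf4a and Nr0b1 had 1 each. Nr1i2 had 0 reads of 514130130, which allows a level of up to 0.00584 CPM, counting error only. Of the 46, 34 were thus tested. The exons of 7 receptors overlap those of a neighbour on the other strand (Thra and Nr1d1 with each other, Rarb with Top2b, Nr1i3 with Tomm40l, Nr2c2 with Mrps25, Nr2f6 with Ocel1 and Esrra with Trmt112). Their levels may hold reads of that neighbour, since the strand setting of the counting is not given in the sources used here.

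**Figure D1:**
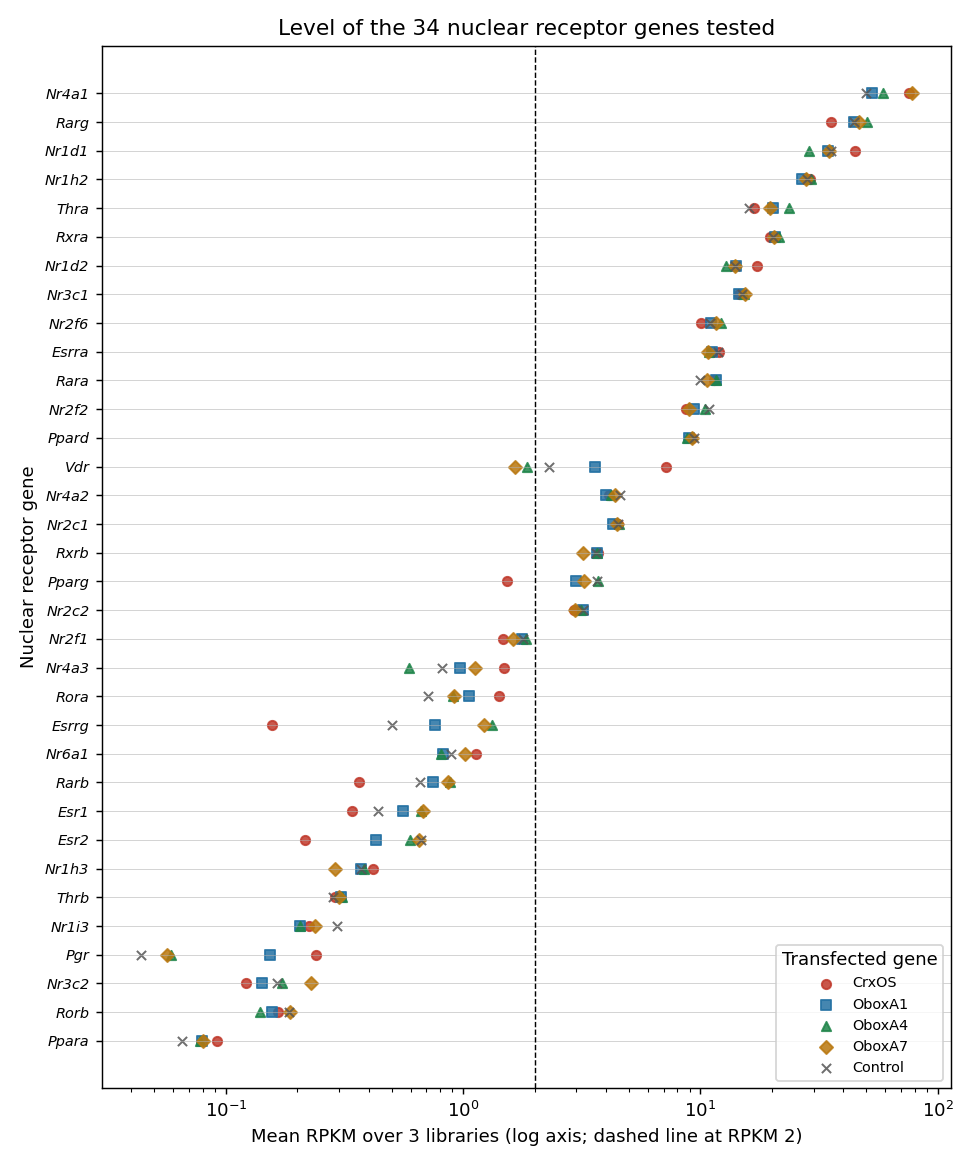
Mean RPKM over 3 libraries (log axis) of the 34 nuclear receptor genes tested, ordered by their highest group mean, with a marker for each of the 5 groups and a dashed line at RPKM 2. Nr4a1 is at the top, 19 genes reach the line in at least 1 group, and the markers of Vdr, Esrrg and Pgr spread widest.

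Changes were tested with edgeR's quasi-likelihood test over all 14012 genes with enough counts, with calls at a Benjamini-Hochberg adjusted p under 0.05 together with a log2 fold change over 0.32 in size, the fold threshold of the study. After CrxOS, 7 of the 34 receptors tested were higher and 2 lower than in Control, against a background of 8.38% and 8.4% of all genes. After OboxA1, 2 were higher (background 4.25%) and 0 lower (3.28%). After OboxA4, 2 were higher (background 8.06%) and 0 lower (5.83%), and after OboxA7, 1 was higher (background 3.33%) and 0 lower (2.34%). The receptors called after CrxOS were thus 26.5% of those tested, against 16.8% of all genes, and after each Obox gene the share was 2.94 to 5.88%, which is 1 or 2 receptors, against 5.67 to 13.9% of all genes. The median log2 fold change of the 34 was 0.009, 0.022, 0.031 and 0.033 after CrxOS, OboxA1, OboxA4 and OboxA7, and that of all genes lay between -0.0013 and 0.0026. Beside the 0 lower after each Obox gene, 6 of the 34 had an unadjusted p under 0.05 in either direction in each of these comparisons, and DESeq2 also called 0 lower.

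The within-set fit called 9 receptors higher and 2 lower after CrxOS (background 6.39% and 5.7%), 5 and 2 after OboxA1 (7.64% and 5.33%), 6 and 3 after OboxA4 (12.7% and 7.71%) and 4 and 1 after OboxA7 (7.62% and 4.3%). The share of receptors called was thus 32.4, 20.6, 26.5 and 14.7% after CrxOS, OboxA1, OboxA4 and OboxA7, against 12.1, 13, 20.4 and 11.9% of all genes, so that after the Obox genes it lay above the share of all genes within sets and below it over 15 libraries. All 14 calls of the 15-library test were also made within sets. The 4 comparisons share the Control libraries. In the 15-library test, single libraries moved these counts. For CrxOS, 3 receptors were higher without CrxOS replicate 2, 4 were higher with Control replicate 3 left out, 7 were lower without Control replicate 1 and 4 were lower without OboxA1 replicate 3, while 1 was lower when CrxOS replicate 2 or 3, or Control replicate 2 or 3, was left out. Without Control replicate 1, 2 receptors were lower after OboxA1 and 1 after OboxA4. That refit called 1790 of all genes after OboxA1 and 2051 after OboxA4, against 1055 and 1946 with all 15 libraries. The count higher after OboxA1 became 1 without OboxA1 replicate 1 or 3 or Control replicate 2, and 0 without Control replicate 3. In that order, these refits called 472, 1639, 757 and 497 of all genes after OboxA1. Without OboxA1 replicate 3, 4 receptors were higher after OboxA4 and 5 after OboxA7. All genes called there were 2391 and 1321, against 1946 and 794 with all 15 libraries. Leaving out any 1 library gave 1395 to 2391 of all genes called after OboxA4 and 257 to 1321 after OboxA7. The count for OboxA4 became 1 without any 1 of its own libraries or Control replicate 3, and that for OboxA7 became 2 without OboxA1 replicate 1, 3 without Control replicate 2, and 0 without any 1 of its own libraries, CrxOS replicate 3, OboxA4 replicate 3 or Control replicate 1 or 3.

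The Nr4a genes encode orphan receptors that are made within minutes to hours of a stimulus, largely through cyclic AMP response elements in their promoters. Nr4a1 and Nr4a3 were both called after CrxOS. The 250 bases before a RefSeq transcription start (GRCm38.p6) are shown for Nr4a1, where the start lies inside the gene, and for Nr4a2, 5′ to 3′ along the gene, with each half-site TGACG of such an element in capitals, where a site on the opposite strand reads CGTCA.
Nr4a1, chr15:101266596-101266845, plus strand: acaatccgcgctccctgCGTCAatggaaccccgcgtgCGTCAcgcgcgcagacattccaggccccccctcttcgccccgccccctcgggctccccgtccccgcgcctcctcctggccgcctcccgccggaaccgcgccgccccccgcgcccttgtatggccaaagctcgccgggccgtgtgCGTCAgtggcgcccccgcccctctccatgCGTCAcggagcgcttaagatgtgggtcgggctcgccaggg
Nr4a2, chr2:57124004-57124253, minus strand: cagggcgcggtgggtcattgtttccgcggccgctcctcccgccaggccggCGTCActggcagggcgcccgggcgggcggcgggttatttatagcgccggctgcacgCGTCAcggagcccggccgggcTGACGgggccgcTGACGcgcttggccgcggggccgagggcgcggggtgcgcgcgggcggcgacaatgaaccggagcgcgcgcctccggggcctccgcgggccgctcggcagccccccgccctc
The window of Nr4a3 reaches into an annotated first exon and its letters are not shown. Each of the 3 windows holds 4 half-sites, in Nr4a1 all on the opposite strand at bases -233 to -40 from the start, and in Nr4a2 and Nr4a3 on both strands. At least 1 half-site is found in 17.8% of 32851 windows of the same length before annotated starts, and 4 or more in 0.137%. The half-site was chosen after these sequences had been seen. A match is a description of the letters and not of a bound site.

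Nr4a1 (gene at chr15:101253902-101274795, plus strand) had 260.2, 381 and 318 CPM in CrxOS libraries, against 147, 237 and 242 CPM in Control libraries. The CrxOS libraries all lay above the Control libraries, and the lowest Control library was replicate 1. The log2 fold change was 0.62 ± 0.18 (SE, n = 3 each, adjusted p = 0.027, edgeR), and 1.12 ± 0.16 within sets (adjusted p = 0.000177), where the lone Control library is that low replicate 1. The call was lost without any 1 of CrxOS replicate 2 (0.47), CrxOS replicate 3 (0.62) and Control replicate 1 (0.42), where the number after each library is the log2 fold change without it. After OboxA7 the gene had 296, 371 and 315 CPM, again above every Control library. Its log2 fold change was 0.65 ± 0.18 (adjusted p = 0.0417) and 0.45 ± 0.12 within sets (adjusted p = 0.0121). This call was lost without any 1 of CrxOS replicate 3 (0.65), OboxA4 replicate 3 (0.65), OboxA7 replicate 1 (0.72), OboxA7 replicate 2 (0.55), OboxA7 replicate 3 (0.68), Control replicate 1 (0.45) and Control replicate 3 (0.77). In OboxA1 libraries Nr4a1 had 203, 204 and 259.8 CPM and in OboxA4 libraries 237, 219.6 and 275 CPM, both overlapping Control, and neither difference was called in either fit.

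Nr4a3 (gene at chr4:48045078-48086447, plus strand) was higher after CrxOS, at 8.84, 11.3 and 9.21 CPM in CrxOS libraries, against 5.03, 5.21 and 5.62 CPM in Control libraries. The groups did not overlap, and the Control libraries lay close together whichever set they came from. This gave a log2 fold change of 0.89 ± 0.21 (adjusted p = 0.00868), 0.96 ± 0.22 within sets, and the call held without each of the 15 libraries. With a shared term for the set it was 0.66 and was not called. After OboxA4, Nr4a3 had 3.9, 3.47 and 4.17 CPM, below every Control library. That difference, -0.46 ± 0.21, was not called over 15 libraries (adjusted p = 0.138) and was called within sets (-0.49 ± 0.18, adjusted p = 0.0409). OboxA7 libraries had 7.32, 9.17 and 5.55 CPM, with a log2 fold change of 0.47 ± 0.21 (adjusted p = 0.166), and OboxA1 libraries had 5.32, 5.14 and 8.74 CPM, where replicate 3, of the set of 5, was the high one.

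Nr4a2 (gene at chr2:57106830-57124003, minus strand) did not pass the thresholds after any gene over 15 libraries. It had 26.8, 31.6 and 25.6 CPM in CrxOS libraries and 20.8, 34.3 and 36.8 CPM in Control libraries, so Control replicate 1 was low for this gene as it was for Nr4a1. Within sets it was higher after CrxOS (0.43 ± 0.12, adjusted p = 0.0168), a value that rests on Control replicate 1, and lower after OboxA4 (-0.35 ± 0.087, adjusted p = 0.00455). The gene lists here and below were chosen with earlier results of these data known. Beside their counts, 8.38, 4.25, 8.06 and 3.33% of all genes were called higher after CrxOS, OboxA1, OboxA4 and OboxA7. The shares called lower were 8.4, 3.28, 5.83 and 2.34% in the same order. The list of 7 immediate-early genes, which respond to the same stimuli, had 1 and 0 after CrxOS, 2 and 0 after OboxA1, 3 and 0 after OboxA4 and 4 and 0 after OboxA7 called higher and lower. Its median log2 fold changes were 0.33, 0.19, 0.34 and 0.67 in the same order, against medians of all genes between -0.0013 and 0.0026. Fos rose by 0.97, 1.54 and 1.28 on the log2 scale after OboxA1, OboxA4 and OboxA7, and Egr1 rose by 0.67 and Junb by 0.44 after OboxA7. Junb also rose by 0.34 after OboxA4, a call not made within sets (0.25, under the fold threshold). Within sets 5, 3, 2 and 5 of the 7 were called higher and 0, 1, 1 and 1 lower after CrxOS, OboxA1, OboxA4 and OboxA7.

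Nr1d1 and Nr1d2 encode the Rev-erb receptors, which repress clock genes through sites that the ROR receptors activate. Nr1d1 (gene at chr11:98767932-98775377, minus strand) had 133, 133 and 108 CPM in CrxOS libraries, against 90.8, 95.8 and 104 CPM in Control libraries. The groups did not overlap, and CrxOS replicate 3 lay just above the highest Control library. Nr1d1 thus had a log2 fold change of 0.36 ± 0.12 (adjusted p = 0.0408) and 0.46 ± 0.10 within sets. The call was lost without any 1 of CrxOS replicate 1 (0.31), CrxOS replicate 2 (0.31), OboxA7 replicate 1 (0.36), OboxA7 replicate 3 (0.36), Control replicate 1 (0.32), Control replicate 2 (0.35) and Control replicate 3 (0.42). Nr1d2 (gene at chr14:18204056-18239106, minus strand) had 84.5, 79.8 and 78.7 CPM in CrxOS libraries, against 61.3, 67.4 and 64.9 CPM in Control libraries, also without overlap. Its log2 fold change was 0.33 ± 0.089 (adjusted p = 0.0181) and 0.40 ± 0.066 within sets, and the call was lost without any 1 of CrxOS replicate 1 (0.30), CrxOS replicate 2 (0.34), Control replicate 1 (0.29) and Control replicate 3 (0.33). With a shared term for the set both calls were lost, at log2 fold changes of 0.24 for Nr1d1 and 0.22 for Nr1d2. OboxA1 libraries had 86.2, 83.95 and 119 CPM of Nr1d1 and 59.7, 58.6 and 78.8 CPM of Nr1d2, with replicate 3, of the set of 5, in the range of the CrxOS libraries for both genes. OboxA4 libraries had 78.9, 72.6 and 84.7 CPM of Nr1d1, all below Control, a difference of -0.30 ± 0.12 that was not called over 15 libraries (adjusted p = 0.0821) and was called within sets (-0.35 ± 0.079, adjusted p = 0.00239). Exons of Nr1d1 and Thra share 263 bases on opposite strands, and either gene's count may hold reads of the other there.

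Rora (gene at chr9:68653404-69388246, plus strand), the activator that competes with the Rev-erb receptors, had 26.96, 30.6 and 26.3 CPM in CrxOS libraries, against 14.4, 13.7 and 13.1 CPM in Control libraries, so its level in the lowest CrxOS library was well above the highest Control library. Rora had a log2 fold change of 1.03 ± 0.20 (adjusted p = 0.0035), 0.96 ± 0.14 within sets, 0.66 with a shared term for the set, and the call held without each of the 15 libraries. OboxA1 libraries had 17.4, 14.7 and 30.6 CPM, OboxA4 libraries 19.9, 16.4 and 16.3 CPM and OboxA7 libraries 20.2, 17.4 and 16.3 CPM. Every one of these 9 lay above the highest Control library, by a small margin in OboxA1 replicate 2. These differences were not called over 15 libraries (adjusted p = 0.0685, 0.23 and 0.246) and were called within sets, at log2 fold changes of 0.68 ± 0.10, 0.38 ± 0.11 and 0.42 ± 0.11. Rora was the only 1 of the 34 receptors called within sets after all 4 genes. Rorb, its neural relative, had a highest group mean of 0.187 RPKM and was not called.

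Of 13 clock partners and targets of these receptors, all tested, the numbers called higher and lower were 5 and 0 after CrxOS, 3 and 0 after OboxA1, 5 and 0 after OboxA4 and 3 and 0 after OboxA7. The shares of all genes called higher were 8.38, 4.25, 8.06 and 3.33% in that order. The median log2 fold changes of the list were 0.25, 0.21, 0.19 and 0.16. Dbp, an output gene of the clock, rose by 1.12, 0.88, 0.73 and 0.50 on the log2 scale after CrxOS, OboxA1, OboxA4 and OboxA7. The period gene Per2 rose by 0.80, 0.53 and 0.52 after CrxOS, OboxA1 and OboxA4, Per1 rose by 0.55 after CrxOS and 0.40 after OboxA7, and Per3 rose by 0.58, 0.61, 0.76 and 0.59 after CrxOS, OboxA1, OboxA4 and OboxA7. These calls were also made within sets except that of Per3 after CrxOS (0.42, adjusted p = 0.0582).

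Vdr (gene at chr15:97854427-97908296, minus strand), the vitamin D receptor, had the largest log2 fold change among the expressed receptors, with 28.6, 34.1 and 32.03 CPM in CrxOS libraries, against 17.8, 5.53 and 6.39 CPM in Control libraries. The groups did not overlap, and Control replicate 1, of the set of 5, lay between the CrxOS libraries and the other Control libraries. The log2 fold change was 1.67 ± 0.46 (adjusted p = 0.0189) over 15 libraries and 0.83 ± 0.13 (adjusted p = 0.00027) within sets, and 0.77 with a shared term for the set. The call was lost without any 1 of CrxOS replicate 2 (1.61), Control replicate 2 (1.38) and Control replicate 3 (1.44). OboxA1 replicate 3, also of the set of 5, had 30.2 CPM, in the range of the CrxOS libraries, while OboxA1 replicates 1 and 2 had 9.92 and 7.64 CPM. OboxA4 libraries had 8.33, 7.68 and 8.07 CPM and OboxA7 libraries 7.46, 7.53 and 6.56 CPM. Vdr was the 1 receptor with every library of the set of 5 above every library of the set of 10 (background 7.56% of all genes). Within sets it was called higher after OboxA1 (0.67 ± 0.10, adjusted p = 0.000124) and OboxA4 (0.43 ± 0.12, adjusted p = 0.0122), while the 15-library values of 0.68 ± 0.46 and -0.31 ± 0.47 were not called. For OboxA4 the signs in the 2 fits are thus opposite.

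Of 6 vitamin D receptor targets 4 were tested, and the numbers called higher and lower were 0 and 0 after CrxOS, 0 and 1 after OboxA1, 0 and 2 after OboxA4 and 1 and 2 after OboxA7, with median log2 fold changes of -0.21, -0.49, -0.36 and -0.17. Within sets these medians were 0.165, -0.361, -0.468 and -0.342, so the sign after CrxOS was the opposite one. Tnfsf11, the RANKL cytokine of bone remodelling, fell by 0.60, 0.84 and 0.56 on the log2 scale after OboxA1, OboxA4 and OboxA7. Spp1, osteopontin, fell by 0.64 and 0.69 after OboxA4 and OboxA7, and S100g, a calcium-binding protein, rose by 2.29 after OboxA7.

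Pparg (gene at chr6:115360879-115490404, plus strand), the fatty acid receptor that drives fat cell formation, had 4.95, 5.19 and 5.13 CPM in CrxOS libraries, against 7.31, 13.4 and 15.2 CPM in Control libraries. All CrxOS libraries lay below Control, whose replicate 1, of the set of 5, was the lowest. For Pparg the log2 fold change was -1.23 ± 0.34 (adjusted p = 0.0208) over 15 libraries and -0.52 ± 0.13 (adjusted p = 0.0105) within sets. With a shared term for the set it was -0.29 and was not called. The call was lost without any 1 of CrxOS replicate 1 (-1.21), CrxOS replicate 2 (-1.24), CrxOS replicate 3 (-1.24), Control replicate 2 (-1.14) and Control replicate 3 (-1.02). OboxA1 libraries had 12.8, 12.8 and 3.92 CPM, with replicate 3 below every CrxOS library. Within sets Pparg was lower after OboxA1 (-0.52 ± 0.1, adjusted p = 0.000907) and OboxA7 (-0.42 ± 0.09, adjusted p = 0.0029), neither of which was called over 15 libraries (-0.27 ± 0.33 and -0.16 ± 0.33). The set of 5 lay wholly below the set of 10 for Pparg. The adipocyte marker Fabp4, a fatty acid carrier, moved with it, while the other 4 adipocyte markers were at most 0.0668 RPKM in any library. The summed level of the 5 was 3.48 to 6.12 CPM in the set of 5 and 9.51 to 14.3 CPM in the set of 10, with Lep at 0 in every library, and the part of these markers in the Pparg result was not tested. In bulk RNA, fewer cells of a type and less RNA per cell cannot be told apart.

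Ppard, the widely expressed relative, had 59.3, 63.6 and 60.7 CPM in CrxOS libraries and 59.4, 61.9 and 62.96 CPM in Control libraries, and neither it nor Ppara was called. Of 13 PPAR targets 10 were tested, with 1 and 4 after CrxOS, 0 and 0 after OboxA1, 0 and 1 after OboxA4 and 0 and 0 after OboxA7 called higher and lower and median log2 fold changes of -0.12, -0.13, 0.087 and -0.015. Within sets these medians were -0.133, -0.136, -0.0376 and -0.0632. Lpl, lipoprotein lipase, rose by 1.21 after CrxOS (0.60 within sets), Pdk4, a switch from glucose to fatty acid use, fell by 0.87 after CrxOS, and Plin2, a lipid droplet protein, fell by 0.52 after OboxA4. Among 14 coactivators, only Ppargc1a was called, lower after CrxOS (fell by 1.72, and by 1.43 within sets), and 0 were called after each Obox gene. The coactivator medians were 0.028, 0.03, 0.0093 and 0.022, and 0.0918, 0.0547, -0.000598 and 0.000968 within sets. Of 8 estrogen-related receptor targets, mitochondrial enzymes and subunits, 0 were called after each of the 4 genes, with medians of -0.061, -0.098, -0.12 and -0.08.

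**Figure D2:**
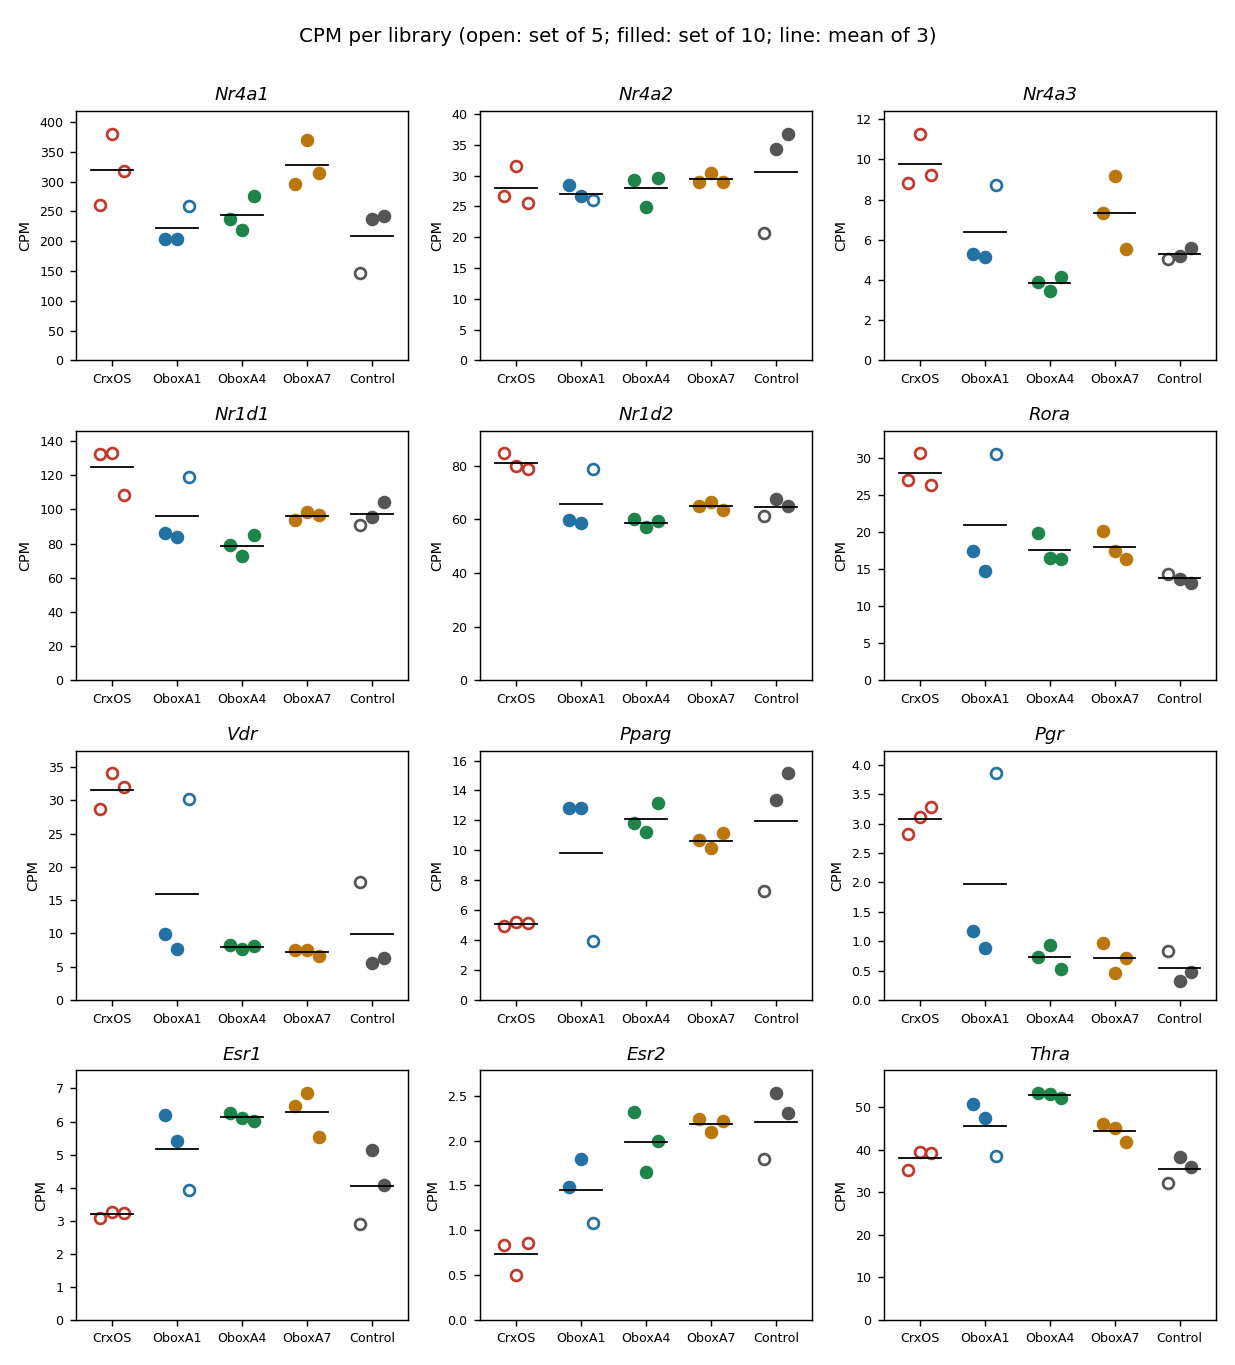
CPM in each of the 15 libraries (y axes from 0) for the 11 receptors called against Control and for Nr4a2, with open points for the set of 5, filled points for the set of 10 and a line at the mean of 3. For Vdr, Rora, Nr1d1, Nr1d2, Nr4a2 and Thra the open OboxA1 point lies among the CrxOS points. For Pgr, Esr1 and Esr2 it lies above them, and for Nr4a1, Nr4a3 and Pparg below them. The open OboxA1 point of Esr2 lies between the CrxOS and Control points, and that of Esr1 within the range of Control. For Vdr the open Control point lies between the CrxOS points and the other Control points.

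Of the sex steroid receptors, Pgr (gene at chr9:8898900-8968611, plus strand), the progesterone receptor, was low but had the largest fold, with 2.82, 3.12 and 3.29 CPM in CrxOS libraries (101, 107 and 100 reads), against 0.838, 0.324 and 0.482 CPM in Control libraries (29, 11 and 15 reads). The groups were far apart and Control replicate 1 was the highest of the 3. The log2 fold change was 2.48 ± 0.50 (adjusted p = 0.00402), 1.87 ± 0.33 within sets, 1.59 with a shared term for the set, and the call held without each of the 15 libraries. OboxA1 libraries had 1.18, 0.879 and 3.86 CPM, each above every Control library and the highest of all 15 in replicate 3. That log2 fold change was 1.83 ± 0.51 (adjusted p = 0.0343), 1.79 ± 0.27 within sets. The call was lost without any 1 of OboxA1 replicate 3 (0.92), Control replicate 2 (1.56) and Control replicate 3 (1.75). OboxA4 libraries had 0.738, 0.938 and 0.531 CPM and OboxA7 libraries 0.965, 0.455 and 0.723 CPM, overlapping Control, and were not called.

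Esr2 (gene at chr12:76120419-76177259, minus strand), estrogen receptor beta, was lower after CrxOS, at 0.839, 0.496 and 0.855 CPM in CrxOS libraries (30, 17 and 26 reads), against 1.79, 2.53 and 2.31 CPM in Control libraries (62, 86 and 72 reads). The groups did not overlap. Esr2 had a log2 fold change of -1.60 ± 0.24 (adjusted p = 0.000729) and -1.30 ± 0.29 within sets, and the call held without each of the 15 libraries. Within sets Esr2 was also lower after OboxA1 (-0.65 ± 0.21, adjusted p = 0.0281), at 1.48, 1.79 and 1.08 CPM. That was not called over 15 libraries (adjusted p = 0.0941).

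Esr1 (gene at chr10:4611989-5005633, plus strand), estrogen receptor alpha, had 6.25, 6.11 and 6.02 CPM in OboxA4 libraries, against 2.89, 5.15 and 4.08 CPM in Control libraries. The OboxA4 libraries lay together above Control, whose replicate 1 was low. The log2 fold change was 0.60 ± 0.19 (adjusted p = 0.036) and 0.40 ± 0.13 within sets, and the call was lost without any 1 of OboxA4 replicate 1 (0.60), OboxA4 replicate 2 (0.61), OboxA4 replicate 3 (0.62), Control replicate 1 (0.41) and Control replicate 3 (0.61). OboxA7 libraries had 6.47, 6.86 and 5.53 CPM and a log2 fold change of almost the same size, 0.64 ± 0.19, whose adjusted p of 0.0505 missed the threshold and which was called within sets (0.44 ± 0.13, adjusted p = 0.0204). OboxA1 libraries had 6.2, 5.41 and 3.92 CPM and were called within sets only (0.39 ± 0.13, adjusted p = 0.0419). CrxOS libraries had 3.08, 3.27 and 3.22 CPM and were called in neither fit (-0.34 ± 0.20 and 0.14 ± 0.19 within sets).

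The glucocorticoid receptor gene Nr3c1 had 124, 117 and 119 CPM in CrxOS, 118, 122 and 119.8 CPM in OboxA1, 136, 111 and 124 CPM in OboxA4, 126, 121 and 131 CPM in OboxA7 and 106, 129 and 130.3 CPM in Control libraries. Every group overlapped Control, the log2 fold changes were -0.023 ± 0.08, -0.025 ± 0.08, 0.017 ± 0.08 and 0.047 ± 0.08, and none was called in either fit. Of 13 of its targets 11 were tested, with 4 and 2 after CrxOS, 0 and 2 after OboxA1, 1 and 2 after OboxA4 and 1 and 0 after OboxA7 called higher and lower and medians of 0.11, -0.032, 0.093 and 0.1. Within sets these medians were 0.155, 0.0171, -0.0719 and 0.0651. Sgk1, a kinase of salt transport, fell by 0.63, 0.88 and 0.87 after CrxOS, OboxA1 and OboxA4, and after CrxOS that call was not made within sets (0.07, adjusted p = 0.734). Errfi1, an inhibitor of the EGF receptor, fell by 0.86 and 0.81 after OboxA1 and OboxA4. Fkbp5, a co-chaperone of the receptor, fell by 0.47 after CrxOS. In the other direction, Per1, a period gene also on this list, rose by 0.55 after CrxOS and 0.40 after OboxA7. Of 8 Hsp90 chaperones of steroid receptors, the numbers called higher and lower were 0 and 2 after CrxOS, 0 and 2 after OboxA1, 0 and 3 after OboxA4 and 0 and 2 after OboxA7, with medians of -0.30, -0.26, -0.30 and -0.23. Fkbp4, another co-chaperone, fell by 0.42, 0.37, 0.42 and 0.41 after CrxOS, OboxA1, OboxA4 and OboxA7, and the chaperone gene Hsp90aa1 fell by 0.39, 0.54 and 0.36 after the 3 Obox genes. Nr3c2, the mineralocorticoid receptor gene, was at 0.638 to 1.8 CPM and was not called.

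Thra (gene at chr11:98740776-98769006, plus strand), the main thyroid hormone receptor gene of these cells, was higher after OboxA4, at 53.3, 53.1 and 52.01 CPM in OboxA4 libraries, against 32.2, 38.3 and 35.99 CPM in Control libraries. The OboxA4 libraries lay close together and far above Control. Thra had a log2 fold change of 0.57 ± 0.091 (adjusted p = 0.00124) and 0.51 ± 0.065 within sets, and the call held without each of the 15 libraries. OboxA1 libraries had 50.6, 47.3 and 38.6 CPM, all above Control, with replicate 3 just above the highest Control library. Here the log2 fold change was 0.36 ± 0.092 (adjusted p = 0.0235), 0.33 ± 0.062 within sets, and the call was lost without any 1 of OboxA1 replicate 1 (0.27), OboxA1 replicate 2 (0.33), Control replicate 1 (0.29) and Control replicate 3 (0.37). OboxA7 libraries had 46.1, 45.1 and 41.8 CPM, also all above Control, and their difference of 0.32 ± 0.091 (adjusted p = 0.044) was not called, since it fell just under the fold threshold. CrxOS libraries had 35.2, 39.5 and 39.2 CPM and overlapped Control. Thrb, the second gene of the pair, was at 2.71 to 3.87 CPM and was not called.

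Of 6 thyroid hormone receptor targets 5 were tested, with 1 and 0 after CrxOS, 1 and 0 after OboxA1, 2 and 0 after OboxA4 and 2 and 0 after OboxA7 called higher and lower and medians of -0.08, -0.0076, 0.12 and 0.26. Within sets these medians were 0.223, 0.0239, -0.0235 and 0.0951. Dio3, the deiodinase that inactivates thyroid hormone, rose by 1.18 and 1.11 on the log2 scale after OboxA4 and OboxA7. Hr, a corepressor of thyroid hormone and vitamin D receptors that is also on this list, rose by 0.76, 0.68, 0.66 and 0.67 after CrxOS, OboxA1, OboxA4 and OboxA7, and by 1.13, 0.77, 0.50 and 0.51 within sets. Of 10 corepressors and their partners, the numbers called higher and lower were 2 and 0 after CrxOS, 1 and 0 after OboxA1, 1 and 0 after OboxA4 and 1 and 0 after OboxA7, with medians of -0.065, -0.036, -0.021 and -0.014, so Hr was the only one called after each Obox gene. Within sets the corepressor medians were 0.129, -0.0254, 0.0163 and -0.00951.

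None of the retinoic acid and retinoid X receptors was called over 15 libraries. Rarg had 125, 128 and 127 CPM in CrxOS libraries, against 140.0, 165 and 167 CPM in Control libraries, and Rarb had 1.26, 1.2 and 1.71 CPM in CrxOS, against 2.17, 2.53 and 2.73 CPM in Control. Neither difference passed the test (-0.31 ± 0.12 and -0.84 ± 0.30, adjusted p = 0.0746 and 0.0552), and both had every library of the set of 5 below every library of the set of 10. Rara was called higher within sets after OboxA4 (0.34 ± 0.058, adjusted p = 0.000201), at 54.7, 56.8 and 55.9 CPM in OboxA4 and 55.2, 44.04 and 43.95 CPM in Control libraries. Rxra was at 100.1 to 126 CPM and Rxrb at 34.2 to 44.2 CPM, called in neither fit. Of 13 retinoic acid targets 12 were tested, Rarb among them, with 3 and 1 after CrxOS, 2 and 0 after OboxA1, 3 and 0 after OboxA4 and 1 and 0 after OboxA7 called higher and lower and medians of 0.085, 0.24, 0.20 and 0.21. Cyp26b1, which degrades retinoic acid, rose by 0.63 and 0.90 after OboxA1 and OboxA4, and Tgm2, a transglutaminase, rose by 0.37, 0.42 and 0.42 after the 3 Obox genes.

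The liver X receptors Nr1h2 and Nr1h3, which sense oxysterols, were not called in either fit. Nr1h2 was at 53.4 to 63.9 CPM and Nr1h3 at 0.539 to 1.18 CPM over the 15 libraries. Of 11 of their targets 9 were tested, Nr1h3 among them, and the numbers called higher and lower were 3 and 0 after CrxOS, 3 and 0 after OboxA1, 5 and 0 after OboxA4 and 1 and 0 after OboxA7, with medians of 0.53, 0.26, 0.33 and 0.23. In the same order, 8.38, 4.25, 8.06 and 3.33% of all genes were called higher. Apoe, an apolipoprotein, rose by 1.06, 0.70, 1.09 and 1.84 on the log2 scale after CrxOS, OboxA1, OboxA4 and OboxA7. Mylip, which marks the LDL receptor for degradation, rose by 1.02, 1.32 and 1.35 after CrxOS, OboxA1 and OboxA4, and Smpdl3a, a phosphodiesterase, rose by 0.56, 0.53 and 0.38 after the same genes. These genes were called within sets too, Mylip after CrxOS at 0.46.

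Esrrg (gene at chr1:187608510-188214885, plus strand), an estrogen-related receptor, was called only within sets. Its values, like those of Nr4a2, Rarb, Rara and Nr2f2 per library, were chosen after they had been seen. It had 11.3, 11.03 and 10.9 CPM in OboxA4 and 10.9, 10.3 and 9.71 CPM in OboxA7 libraries, against 1.01, 7.21 and 4.43 CPM in Control libraries, where replicate 1 was far below the others. CrxOS libraries had 1.01, 1.52 and 1.48 CPM and OboxA1 libraries 9.84, 8.52 and 0.829 CPM, with replicate 3 again low. Within sets Esrrg was higher after OboxA4 (0.92 ± 0.15, adjusted p = 0.000166) and OboxA7 (0.81 ± 0.15, adjusted p = 0.000941), and over 15 libraries the differences of 1.39 ± 0.62 and 1.29 ± 0.62 were not called (adjusted p = 0.12 and 0.204). In all, 5 receptors (Rarb, Rarg, Pparg, Esr1 and Esrrg) had the set of 5 wholly below the set of 10, of 34, against 9.22% of all genes. The summed level of 4 neuronal markers was 16.5 to 22.8 CPM in the set of 5 and 59.6 to 89.4 CPM in the set of 10, and that of 5 epithelial markers 2.19 to 4.65 CPM and 5.13 to 14.1 CPM. These sums rest mostly on 1 gene each, Stmn2 (8.31 to 46.7 RPKM, the other neuronal markers at most 0.129 RPKM) and Krt18 (1.24 to 9.49 RPKM, the other epithelial markers at most 0.531 RPKM). The part of these markers in any receptor's result was not tested.

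The COUP-TF genes Nr2f1, Nr2f2 and Nr2f6, regulators of mesenchymal and vascular development, were not called. Nr2f2 had 52.8, 49.4 and 51.1 CPM in CrxOS, 56.3, 56.5 and 53.2 CPM in OboxA1, 64.3, 57.9 and 58.6 CPM in OboxA4 and 49.1, 53.3 and 54.2 CPM in OboxA7 libraries, against 62.8, 63.8 and 62.6 CPM in Control libraries. Its differences after CrxOS, OboxA1 and OboxA7 had adjusted p of 0.00203, 0.0388 and 0.0096, but the log2 fold changes of -0.30 ± 0.054, -0.19 ± 0.054 and -0.27 ± 0.054 were within 0.32 of 0. Nr6a1, the germ cell nuclear factor, was called higher after CrxOS within sets only (0.81 ± 0.21, adjusted p = 0.0132, against 0.37 ± 0.20 over 15 libraries). Nr2c1 was at 21.03 to 23.8 CPM and Nr2c2 at 24.6 to 38.2 CPM, and Nr1i3, the xenobiotic receptor CAR, was at 0.318 to 0.771 CPM. None of these 3 was called.

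**Figure D3:**
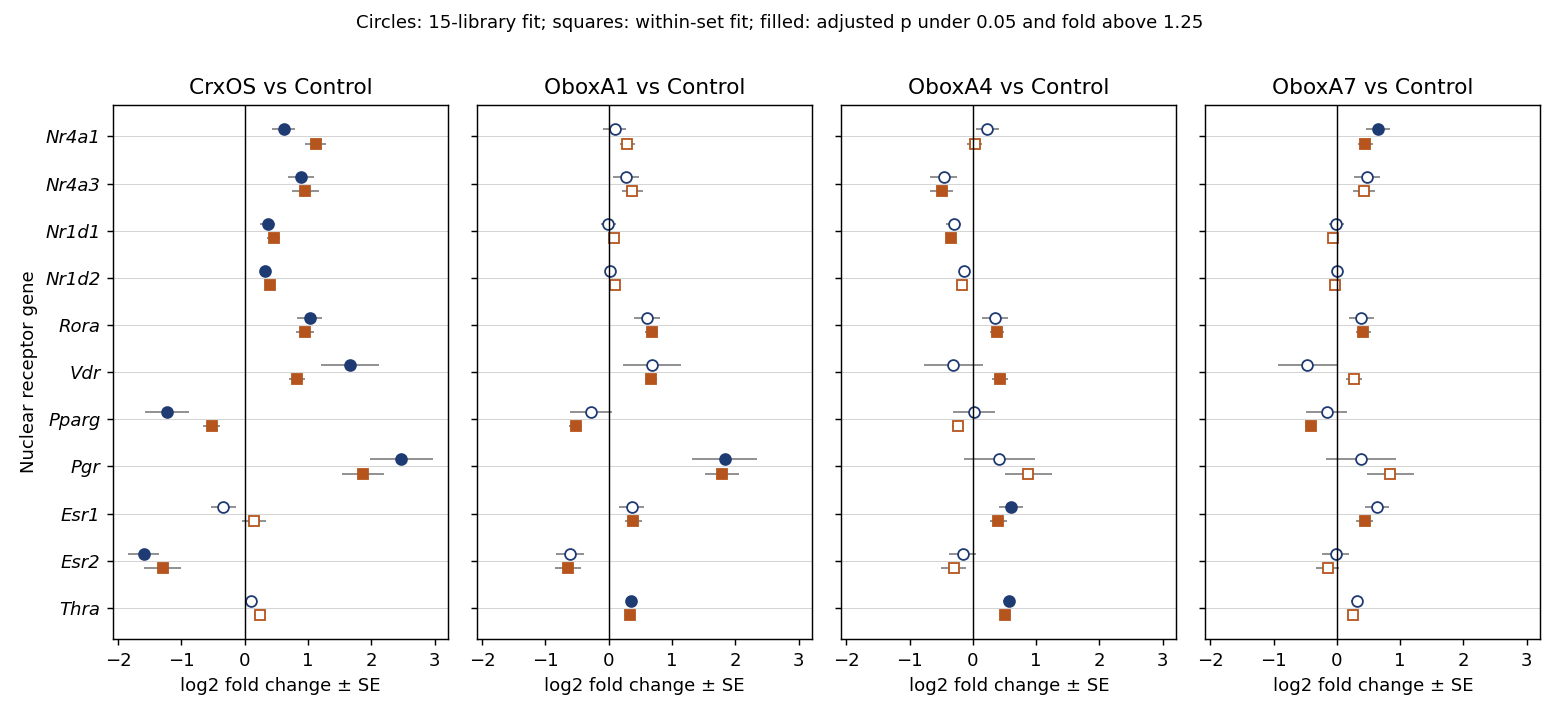
Log2 fold change with its SE (x axis) of the 11 called receptors against Control after each transfected gene, as circles for the 15-library fit and squares for the within-set fit, filled where the adjusted p was under 0.05 and the log2 fold change over 0.32 in size. Rora is right of 0 in every panel with a filled square, and the 2 fits lie farthest apart for Vdr after CrxOS.

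Between the Obox genes, 0 receptors were called over 15 libraries in OboxA1 against OboxA7, OboxA4 against OboxA7 and OboxA4 against OboxA1, where 0.121%, 0.186% and 0.0285% of all genes were called by edgeR. At an unadjusted p under 0.05 there were 6, 6 and 5 receptors, and DESeq2 called 0, 1 and 0, the 1 being Nr4a3, which was lower in OboxA4 than in OboxA7. Its edgeR log2 fold change between these groups was -0.93 ± 0.21 (adjusted p = 0.105) and, within the set of 10, -0.92 ± 0.16 (adjusted p = 0.00153, called). The OboxA4 libraries had 3.9, 3.47 and 4.17 CPM and the OboxA7 libraries 7.32, 9.17 and 5.55 CPM, without overlap. Without OboxA1 replicate 3, 1 receptor was called in OboxA4 against OboxA7. The within-set values between Obox genes use the set of 10 alone, so OboxA1 is represented there by replicates 1 and 2. Within sets Nr4a1 was lower in OboxA1 than in OboxA7 (-0.68 ± 0.12, adjusted p = 0.00462) and lower in OboxA4 than in OboxA7 (-0.42 ± 0.11, adjusted p = 0.0231), against backgrounds of 1.75% and 3.53% of all genes called, and 0 receptors were called in OboxA4 against OboxA1 (0.0642% of all genes), where 2 had an unadjusted p under 0.05.

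The promoter windows of the other receptors were searched in the same way. RefSeq windows were matched for 42 of the 46 receptors (63 windows of 250 bases before a start, GRCm38.p6, both strands). The letters TAATCC, the core bound by homeodomains of the Crx and Otx class, are in 3 of these windows (4.76%), 1 each of Nr1h3, Nr2f2 and Thrb, and in 6.25% of all 32851 windows. None of these 3 genes was called. The E-box CACGTG, bound by the clock activators, is in 5 windows (7.94%, against 6.02% of all windows), the full cyclic AMP element TGACGTCA in 1 (1.59%, against 1.55%) and the nuclear receptor half-site AGGTCA in 11 (17.5%, against 14.0%), with those of Nr1d2, Rarg and 2 of the 3 windows of Pparg among them. The letters TGACGTCA contain TGACG, so the full element and its half-site overlap.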

How the data were processed

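RNA-seq was done on 15 libraries of primary mouse embryonic fibroblasts (5 groups of 3, from the labels). Poly-A-enriched RNA was sequenced with paired ends, and the authors used STAR for alignment to mouse GRCm38 (mm10) and featureCounts, named also in the submitters' processing notes, for assignment to protein-coding NCBI genes. For versions, strand and multi-mapping: not given in the sources used here. Deposited values are raw counts, with 22063 rows, of which 0 name no gene, and 2 share a name with an earlier row. All sample columns were used (0 left out).

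Counts were scaled by TMM and filtered with filterByExpr, which left 14012 genes, and tested with the quasi-likelihood test of edgeR 4.0.16 (R 4.3.3, limma 3.58.1, prior count 0.125) in a model of 5 group means over all 15 libraries, with Benjamini-Hochberg adjustment over all genes tested. The script was tested on simulated data. RPKM was computed from counts, the deposited gene lengths and the library totals. Totals of 28440415 to 42778823 make counting error small except for the lowest genes. The floor is 3 counts. Principal components used log2 CPM (prior count 2). The within-set fit gives each group a mean in each library set, and for OboxA1 averages the differences of both sets.

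The gene lists (corepressors, coactivators, immediate-early genes, Hsp90 chaperones, clock genes, and targets of retinoic acid, liver X, PPAR, glucocorticoid, thyroid hormone, vitamin D and estrogen-related receptors) and the library sets were chosen with earlier results of these data known. The receptors were taken by name without use of a measured value, though earlier results of these data were known. Per-library values are given for receptors called against Control, and up to 4 called genes of a list are named. Of the marker lists, those of macrophages, endothelium, steroid-producing cells, photoreceptors and skeletal muscle summed to 5.72 to 10.5, 9.15 to 24.2, 12.3 to 15.3, 0.159 to 0.700 and 5.55 to 20.9 CPM. Alternatives were DESeq2 (1.42.0) size factors and Wald test, 2 other filters, no fold threshold, a replicate block, models of only the groups compared, glmTreat, 2 treatments of the library sets, other RPKM thresholds and leaving out each library. The set of 10 alone was added after seeing the data. Promoter sequences and coordinates are those of RefSeq on GRCm38.p6, and exon overlaps those of GENCODE on GRCm38.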

Additional observations from a re-analysis of the deposited data

How the results depend on the processing

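Counts are of receptors called against Control unless another comparison is named, and the cause of each difference was not tested. With glmTreat against the fold threshold, CrxOS had 2 higher and 1 lower, and OboxA1, OboxA4 and OboxA7 had 0 higher, with 745, 179, 322 and 80 of all genes called after CrxOS, OboxA1, OboxA4 and OboxA7. Without a fold threshold, 1 receptor was lower after OboxA1 and 1 after OboxA7, 2 were higher after OboxA7, and 1652, 3228 and 1307 of all genes were called after OboxA1, OboxA4 and OboxA7. In models of only the compared groups, which hold fewer samples, OboxA1, OboxA4 and OboxA7 had 0, 1 and 0 higher, with 67, 1558 and 597 of all genes called. In these models OboxA4 against OboxA7 had 2 called. DESeq2 size factors gave 3 higher after OboxA7, the filter of 1 CPM in 3 libraries 3, and the DESeq2 Wald test 2, with 1 called in OboxA4 against OboxA7. After OboxA7, these settings called 796, 753 and 990 of all genes in that order.

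With a term for the 2 sets, 4 receptors were higher and 1 lower after CrxOS, 6 and 2 after OboxA1, 6 and 1 after OboxA4 and 6 and 1 after OboxA7, 1 was called in OboxA4 against OboxA7, and 1935 and 1333 of all genes were called after OboxA1 and OboxA7. The within-set fit gave 5 higher and 2 lower after OboxA1, 6 and 3 after OboxA4, 4 and 1 after OboxA7, 1 and 2 called in OboxA1 and OboxA4 against OboxA7, and 1817 and 1671 of all genes after OboxA1 and OboxA7. The set of 10 alone gave 5 and 2, 6 and 3, and 4 and 1 for OboxA1, OboxA4 and OboxA7, 1 and 2 for OboxA1 and OboxA4 against OboxA7, and 2394, 2861 and 1684 of all genes after OboxA1, OboxA4 and OboxA7.

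Leaving out 1 library at a time gave 3 to 7 receptors higher and 1 to 7 lower after CrxOS (1320 to 3408 of all genes called), 0 to 3 and 0 to 2 after OboxA1 (472 to 1790), 1 to 4 and 0 to 1 after OboxA4 (1395 to 2391), and 0 to 5 higher after OboxA7 (257 to 1321), with 0 to 1 called in OboxA4 against OboxA7. Deviations of same-numbered libraries from their group means correlated at -0.485 to 0.444, over 0.1 in 3 of 30 pairs. Of the 15 libraries, 8 correlated best with one of their own number. The deviations also hold the split between the 2 sets, so they cannot show whether replicate numbers pair the libraries. With a replicate block 1 receptor was higher after OboxA1, since Pgr (1.76) lost its call, and the other 13 calls of single receptors were made. None of the 14 called receptor changes turned its sign under any alternative run. An RPKM threshold of 1 or 5 gave 24 or 14 receptors expressed. Receptors with few reads, such as Pgr and Esr2, are limited by depth.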
